A study of Homo sapiens with 7 samples.

Results

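A set of 10 genes of the BCL2 family of apoptosis regulators was followed through 7 RNA-seq libraries of PF-382 and MOLT-14, cell lines grown from human T-lineage acute lymphoblastic leukaemia (T-ALL). The genes were chosen by symbol, 10 of the 60662 genes in the tables, and fall into 3 pro-survival members (BCL2, BCL2L1 and MCL1), 2 effectors (BAX and BAK1) and 5 BH3-only members (BID, PMAIP1, BCL2L11, BMF and BBC3). The rule used symbols and no measured value, although the list was chosen with earlier results of these data known. All 10 passed the low-count filter of the PF-382 comparison and of the comparison between lines. The study addressed what losing STAG2 does in leukaemia lines, with STAG2 knocked out in PF-382 and transduced into MOLT-14. The STAG2 protein is part of cohesin, the complex that shapes chromatin loops.

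The PF-382 libraries comprised 2 of wild-type, untreated cells and 3 of cells in which STAG2 was knocked out by delivery of a Cas9 and guide RNA ribonucleoprotein. MOLT-14 gave 1 library of cells transduced with an empty vector and 1 of cells transduced with STAG2. All cells were grown in RPMI medium with fetal bovine serum and received no drug, so the levels are those of unchallenged cultures. Nothing in the labels states whether the PF-382 libraries came from separate clones or cultures, so the p-values measure only the spread between these libraries, which may be technical.

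Proteins of the BCL2 family decide whether the outer mitochondrial membrane is breached. The effectors BAX and BAK1 form the pores that let cytochrome c out, the pro-survival proteins hold them in check, and the BH3-only proteins engage the pro-survival proteins or activate the effectors directly. The family is well known in T-ALL because leukaemic cells can depend on BCL2, BCL-XL (the main product of BCL2L1) or MCL1, which are drug targets. Transcript levels do not measure these proteins, several of which are controlled by cleavage, phosphorylation or rapid turnover.

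Among PF-382 libraries the total count was 32609485 and 33145516 for wild type and 65262329 to 93970572 for the knockouts, and in MOLT-14 it was 38678382 with the empty vector and 45013450 with STAG2. Every knockout library was thus deeper than either wild-type library, and depth and genotype cannot be told apart. Mitochondrial transcripts took 0.600% and 0.550% of counts in wild type and 0.222% to 0.322% in the knockouts, and 4.92% and 1.43% in MOLT-14 with empty vector and STAG2. Small RNA genes took 20.97% and 14.9% in wild type, 11.96% to 13.98% in the knockouts, and 4.87% and 9.27% in MOLT-14. Their part in the results was not tested. Levels are given as CPM, a gene's count relative to its library's total, scaled by the trimmed mean of M-values (TMM), and the 3-count floor corresponded to 0.0343 to 0.0976 CPM. STAG2 itself stood at 335 and 569 CPM in wild-type PF-382 and at 254, 178 and 193 CPM in the knockouts (log2 change -1.13 ± 0.26 (SE), adjusted p = 0.0218, edgeR quasi-likelihood test). In MOLT-14 it stood at 1.17 CPM (56 counts) with the empty vector and at 138 CPM (6878 counts) with STAG2. T-lineage markers were present throughout (11 to 13 of 14 genes at 1 CPM or more). Of 12 T-lineage genes tested in PF-382, 0 rose, 1 fell and 11 did not pass. The 1 that fell in the knockouts was CD5 (log2 -0.95, edgeR adjusted p = 0.00410). Summed myeloid markers were 30.9 and 12.98 CPM in the wild-type libraries and 0.183 to 0.432 CPM in the knockouts, with CTSG and CD68 carrying the wild-type level and ELANE at 0 in all 7 libraries. In MOLT-14 the myeloid sum was 17.8 CPM with the empty vector and 15.1 CPM with STAG2. Summed B-lineage markers were 42.03 and 9.73 CPM against 4.397 to 19.6 CPM, mostly CD79A, which did not pass the test (log2 -1.21, edgeR adjusted p = 0.307), with MS4A1 at 0 in all 7 libraries. Of the markers of other cell types that were tested, 7 fell in the knockouts and 0 rose, beside 14.6% of all genes lower and 15.8% higher. Of 2 myeloid genes tested 2 fell, CTSG and CD68, and of 3 B-lineage genes 1, BLNK (log2 -6.83, edgeR adjusted p = 0.00218). Of 4 stromal and epithelial genes 2 fell, KRT8 (-4.53, adjusted p = 0.00299) and PDGFRB (-1.54, adjusted p = 0.0199). Of 2 erythroid and megakaryocyte genes 2 fell, KLF1 (-1.76, adjusted p = 0.0260) and ITGA2B (-1.98, adjusted p = 0.0376). The 1 natural killer gene tested, NCAM1, did not pass. In the knockouts BLNK stood at 0.0135 to 0.0343 CPM, at or under the 3-count floor. CTSG (0.0324 to 0.202 CPM), CD68 (0.0572 to 0.135 CPM) and KRT8 (0.0810 to 0.227 CPM) stood near it there. ITGA2B (0.114 to 0.366 CPM) and KLF1 (0.216 to 0.320 CPM) stood little above it. The sizes of these changes depend on values near the floor. The part of the markers in the changes below was not tested. In bulk RNA, fewer cells of a type and less RNA per cell cannot be told apart.

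**Figure D1:**
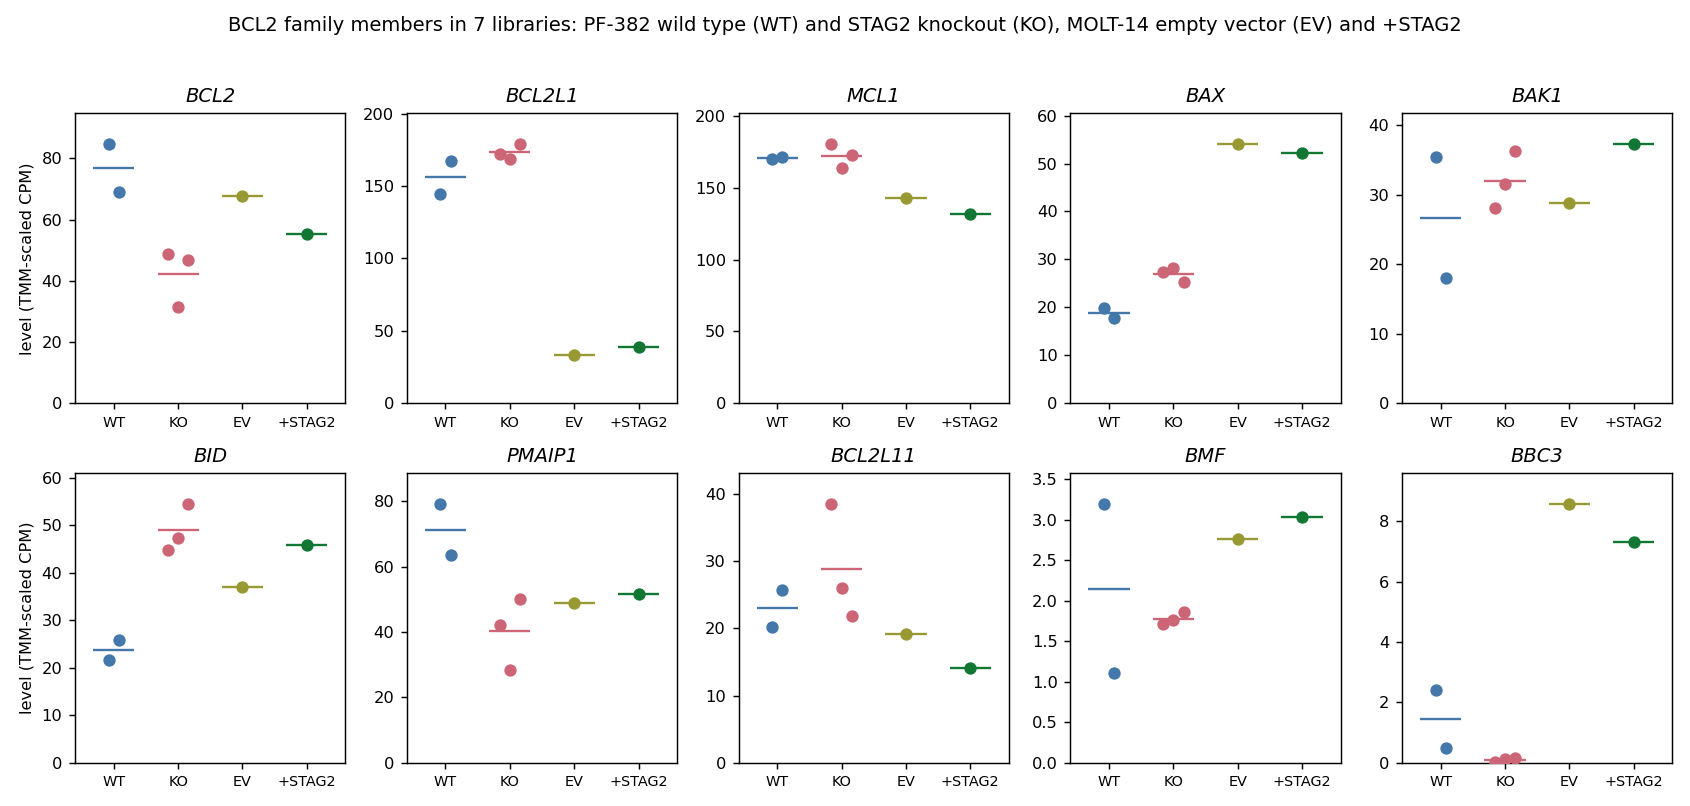
Level of each of the 10 members in each library (y axis, TMM-scaled CPM from 0), by group on the x axis (WT and KO, PF-382 wild type and STAG2 knockout; EV and +STAG2, MOLT-14); each point is 1 library and each bar a group mean. BID and BAX lie higher in all 3 knockouts than in both wild-type libraries and BCL2, PMAIP1 and BBC3 lie lower, while MCL1 stays between 164 and 180.3 CPM across PF-382.

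The question of the first comparison was which members changed when STAG2 was knocked out in PF-382. BID and BAX, which promote death, rose by 2.05-fold and 1.42-fold. BCL2, a pro-survival gene, and PMAIP1 and BBC3, which are pro-death BH3-only genes, fell. BCL2L1, MCL1, BAK1, BCL2L11 and BMF did not pass the test. Thus 2 members rose, 3 fell and 5 did not pass of 10 tested, by edgeR's quasi-likelihood test with Benjamini-Hochberg adjustment over all genes. Over all 17442 genes tested the share past the same threshold was 30.4% (15.8% higher and 14.6% lower), and the 5 of 10 members are read against that share; the difference between the shares was not tested. The 2 groups of libraries did not overlap for 6 members, BCL2L1 beside the 5 called, 3 of them higher and 3 lower in the knockouts; over all genes this held for 59.8% (30.7% above and 29.2% below). The median log2 change was 0.07 over the members and -0.02 over all genes. Under upper-quartile scaling the median of all genes shifted to -0.18 and the split of calls moved from 2763 higher and 2548 lower to 1824 higher and 3566 lower, so the directions here are relative to TMM scaling. The count of 5 members became 2 without knockout replicate 1, 2 or 3, 3 without wild-type replicate 1 (BAK1 among them) and 1, BID, with limma on the deposited TPM. None of the 5 called members turned direction under an alternative that fitted it; BBC3 was below the filter of 1 CPM in 2 libraries. Where a wild-type library is left out, the remaining one is assumed to vary as the knockouts do.

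Among the pro-survival members, BCL2 (ENSG00000171791, chromosome 18:63123346-63320128, minus strand, GRCh38), the founding member and the target of venetoclax, stood at 84.6 and 69.1 CPM in the wild-type libraries and at 48.9, 31.5 and 46.7 CPM in the knockouts. The groups did not overlap, the highest knockout lying below the lower wild-type library. Its log2 change was -0.87 ± 0.21 (SE), with adjusted p = 0.0251 by edgeR. The call was lost without wild-type replicate 1 (log2 -0.70, adjusted p = 0.0619) and without knockout replicate 3 (log2 -0.96, adjusted p = 0.0634).

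BCL2L1 (ENSG00000171552, chromosome 20:31664452-31723989, minus strand), which encodes BCL-XL, was at 145 and 168 CPM in wild type and at 172, 169 and 179 CPM in the knockouts. All 3 knockouts lay above both wild-type libraries, by a margin that did not pass the test (log2 0.14 ± 0.12 (SE), edgeR adjusted p = 0.396). MCL1 (ENSG00000143384, chromosome 1:150574551-150579738, minus strand), a short-lived guardian against BAK1 and the BH3-only proteins, stood at 170.2 and 171 CPM in wild type and at 180.3, 164 and 173 CPM in the knockouts. The groups overlapped and the fitted change was 0.01 ± 0.11 (SE) on the log2 scale (edgeR adjusted p = 0.974).

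Of the effectors, BAX (ENSG00000087088, chromosome 19:48954815-48961798, plus strand) was at 19.97 and 17.7 CPM in wild type and at 27.3, 28.2 and 25.3 CPM in the knockouts. All 3 knockouts lay above both wild-type libraries, with a log2 change of 0.51 ± 0.13 (SE) and adjusted p = 0.0262 by edgeR. The BAX call was lost when any 1 knockout library was left out (log2 0.49, 0.47 and 0.53, adjusted p = 0.0870, 0.113 and 0.0791, without replicates 1, 2 and 3), under upper-quartile scaling (0.34, adjusted p = 0.0904) and with protein-coding genes only (0.42, adjusted p = 0.0516). BAK1 (ENSG00000030110, chromosome 6:33572547-33580293, minus strand), the other pore former, was at 35.4 and 18.0 CPM in wild type and at 28.1, 31.6 and 36.3 CPM in the knockouts. Its wild-type libraries spanned most of the range and the change did not pass the test (log2 0.26 ± 0.28 (SE), edgeR adjusted p = 0.517). Leaving out wild-type replicate 1 gave a log2 change of 0.84 (adjusted p = 0.0131) and leaving out replicate 2 gave -0.13, so a direction cannot be read for BAK1.

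Of the 5 BH3-only members 1 rose, 2 fell and 2 did not pass. BID (ENSG00000015475, chromosome 22:17734138-17774770, minus strand), whose protein is cut by caspase-8 and carries the death receptor signal to mitochondria, was at 21.6 and 25.8 CPM in wild type and at 44.8, 47.4 and 54.5 CPM in the knockouts. The groups stood well apart, and BID had the smallest adjusted p of the 10 members (log2 1.04 ± 0.15 (SE), edgeR adjusted p = 0.00585). Its call held when any 1 knockout library was left out (edgeR adjusted p = 0.0251, 0.0290 and 0.0302 without replicates 1, 2 and 3). The log2 change ranged from 0.93 to 1.20 when any 1 of the 5 libraries was left out. Where that was a wild-type library, the spread came from the knockouts alone.

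PMAIP1 (ENSG00000141682, chromosome 18:59899948-59904306, plus strand), which encodes NOXA, a partner of MCL1, was at 79.2 and 63.5 CPM in wild type and at 42.1, 28.5 and 50.1 CPM in the knockouts. The knockouts lay below both wild-type libraries (log2 -0.83 ± 0.24 (SE), edgeR adjusted p = 0.0420). This call was lost without wild-type replicate 1 (log2 -0.66), without knockout replicate 1 (-0.88, edgeR adjusted p = 0.1003) and without knockout replicate 2 (-0.65, adjusted p = 0.0686). It was also lost when all 7 libraries were fitted in 4 groups (-0.81, edgeR adjusted p = 0.0529). Each MOLT-14 group held 1 library there, so these libraries changed the filter and scaling but added no replicate spread.

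BBC3 (ENSG00000105327, chromosome 19:47220822-47232766, minus strand), which encodes PUMA, a BH3-only protein that binds all the pro-survival members, was scarce in PF-382, with 77 and 15 counts in the wild-type libraries and 2, 10 and 13 counts in the deeper knockout libraries. In CPM these were 2.41 and 0.488 against 0.0324, 0.114 and 0.175. Knockout replicate 1 lay under the 3-count floor, and the fitted log2 change of -3.71 ± 0.82 (SE, edgeR adjusted p = 0.0192) depends on values near it. The wild-type libraries themselves differed more than any other member's, and without wild-type replicate 1 the change was -2.13 with adjusted p = 0.0932. The call was also lost without each knockout library in turn (adjusted p = 0.0557, 0.0657 and 0.0513 without replicates 1, 2 and 3).

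BCL2L11 (ENSG00000153094, chromosome 2:111119378-111168447, plus strand), which encodes BIM, a killer of lymphoid cells that FOXO factors can induce, was at 20.2 and 25.7 CPM in wild type and at 38.5, 26.0 and 21.9 CPM in the knockouts. Only knockout replicate 1 stood clear of the rest, and the change did not pass the test (log2 0.32 ± 0.26 (SE), edgeR adjusted p = 0.383). Its exons overlap those of MIR4435-2HG on the opposite strand, which held 5646 counts over the 7 libraries against 9334 for BCL2L11; strand use in the counting is not given in the sources used here, so BCL2L11 values are uncertain. BMF (ENSG00000104081, chromosome 15:40087890-40108892, minus strand), a BH3-only protein tied to the cytoskeleton, was at 3.20 and 1.11 CPM in wild type and at 1.72, 1.76 and 1.86 CPM in the knockouts. The 3 knockouts fell inside the wild-type pair (log2 -0.28 ± 0.44 (SE), edgeR adjusted p = 0.656), and without wild-type replicate 1 the sign turned (log2 0.69).

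The PF-382 library titles carry a prefix, SA or SB, whose meaning the labels do not give. Both wild-type libraries and knockout replicate 1 are SA, and knockout replicates 2 and 3 are SB. Within SA, 306 genes and 0 members passed edgeR's adjusted threshold, while BID had a log2 change of 0.90 (adjusted p = 0.165), BCL2 was at -0.67 (adjusted p = 0.334), PMAIP1 -0.78 (adjusted p = 0.265), BAX 0.51 (adjusted p = 0.459) and BBC3 -5.38 (adjusted p = 0.0818). Each kept the direction of the full comparison, with 1 knockout library and 2 wild-type libraries behind it.

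The promoters of 4 of the 5 called members are shown to set side by side BID and BAX, which rose, and PMAIP1 and BBC3, which fell: the windows of BID (first start) and PMAIP1 hold several GC boxes, and that of BAX several E-boxes. Each is the 250 bases before the RefSeq start (GRCh38.p14), printed 5′ to 3′ on the gene's strand, at chr22:17774470-17774719 (minus) for BID, the first of its 5 listed starts, chr19:48954625-48954874 (plus) for BAX, chr18:59899746-59899995 (plus) for PMAIP1 and chr19:47232668-47232917 (minus) for BBC3. Capitals mark GC boxes (GGGCGG) and E-boxes (CACGTG) on either strand.
BID: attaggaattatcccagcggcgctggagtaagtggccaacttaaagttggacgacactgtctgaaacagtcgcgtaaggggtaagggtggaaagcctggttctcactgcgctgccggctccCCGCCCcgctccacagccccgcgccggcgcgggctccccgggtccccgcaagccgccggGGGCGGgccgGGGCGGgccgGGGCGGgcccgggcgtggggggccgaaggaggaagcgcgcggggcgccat
BAX: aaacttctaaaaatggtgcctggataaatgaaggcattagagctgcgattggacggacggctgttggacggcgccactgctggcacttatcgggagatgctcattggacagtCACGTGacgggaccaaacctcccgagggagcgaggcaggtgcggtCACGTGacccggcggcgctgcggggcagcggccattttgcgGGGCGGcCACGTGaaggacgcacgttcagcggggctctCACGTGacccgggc
PMAIP1: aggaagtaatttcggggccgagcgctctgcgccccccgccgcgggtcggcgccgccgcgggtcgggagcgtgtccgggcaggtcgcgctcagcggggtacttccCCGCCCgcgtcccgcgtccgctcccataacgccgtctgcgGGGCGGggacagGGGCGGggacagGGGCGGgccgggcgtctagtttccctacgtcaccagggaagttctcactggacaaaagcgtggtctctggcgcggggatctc
BBC3: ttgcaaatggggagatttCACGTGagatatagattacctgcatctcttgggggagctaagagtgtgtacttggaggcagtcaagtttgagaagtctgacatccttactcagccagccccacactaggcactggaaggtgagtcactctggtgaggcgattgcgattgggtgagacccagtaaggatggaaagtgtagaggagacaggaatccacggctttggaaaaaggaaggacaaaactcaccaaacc

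BID, at its first start, and PMAIP1 each held 4 GC boxes, a number reached by 7.63% of the 35116 RefSeq promoter windows of the same length, and 42.6% held at least 1. The other 4 starts of BID held 0 to 4 GC boxes, 2 of them with 1 E-box, at a GC content of 47.6% to 78.0%. BAX held 4 E-boxes and 1 GC box; 6.34% of windows held an E-box and 5 windows (0.0142%) held 4 or more. BBC3 held 1 E-box, and its GC content of 49.2% was below the median of 58.0% over all windows, against 72.8% for PMAIP1, 72.0% for BID and 62.8% for BAX. Other motifs searched on both strands were the cAMP response element TGACGTCA (1.65% of windows), the forkhead motif TGTTTAC (2.98%) and TATAAA (10.7%). None of these 3 was found in the windows shown, and the BCL2 window held none of the 5 motifs. BCL2L11 held 1 forkhead match, and BCL2L1 held 2 TATAAA matches at 1 of its 2 starts. These are matches of letters in a window and say nothing of binding; 9 of the 10 members had an entry, and MCL1 did not.

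The balance between classes was taken per transcript length, from the deposited TPM values, summed within each class. The ratio of pro-survival to BH3-only transcripts was 1.85 and 2.09 in wild-type PF-382 and 2.18, 2.08 and 1.74 in the knockouts. The groups overlapped, and the difference of 0.02 in mean log2 ratio was smaller than the spread within groups (pooled SD 0.158). The ratio of pro-survival to effector transcripts was 2.80 and 3.88 in wild type and 2.63, 2.32 and 2.56 in the knockouts, which lay below both wild-type libraries. No p is given for these sums, since the members were chosen.

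Summed BH3-only TPM overlapped between wild type (26.2 and 32.8) and knockout (29.7 to 36.0), as did the shares of BCL2L11 and BMF in it. The shares of BID, PMAIP1 and BBC3 did not overlap. BID made up 27.1% and 35.6% of BH3-only TPM in wild type and 52.7%, 64.5% and 59.5% in the knockouts. PMAIP1 made up 63.1% and 51.6% in wild type and 35.0%, 24.9% and 33.3% in the knockouts. The TPM of BID over that of PMAIP1 was accordingly 0.430 and 0.690 in wild type and 1.51, 2.59 and 1.79 in the knockouts, so the more abundant of the pair was PMAIP1 in both wild-type libraries and BID in all 3 knockouts. BCL2L11 contributed 6.37% to 11.7% in the 5 PF-382 libraries, BMF 0.528% to 1.14%, and BBC3 2.25% and 0.457% in wild type against 0.0289% to 0.167% in the knockouts. The flat ratio depended on counting BID: without it the knockout minus wild-type difference was 0.77 on the log2 scale, and with BCL2L2, BCL2A1, BAD, BIK and HRK added it was -0.30.

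In the pro-survival class BCL2L1 and MCL1 carried nearly all of the TPM in PF-382. BCL2 made up 9.96% and 7.32% in wild type and 5.01%, 3.68% and 4.73% in the knockouts. BCL2L1 made up 52.4% and 58.9% in wild type and 59.5%, 62.1% and 60.8% in the knockouts, and its TPM was 5.26 and 8.05 times that of BCL2 in wild type and 11.9, 16.9 and 12.9 times in the knockouts. MCL1 remained at 33.8% to 37.7% in all 5 libraries. BAX made up 63.8% and 76.6% of effector TPM in wild type and 69.3% to 75.4% in the knockouts.

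**Figure D2:**
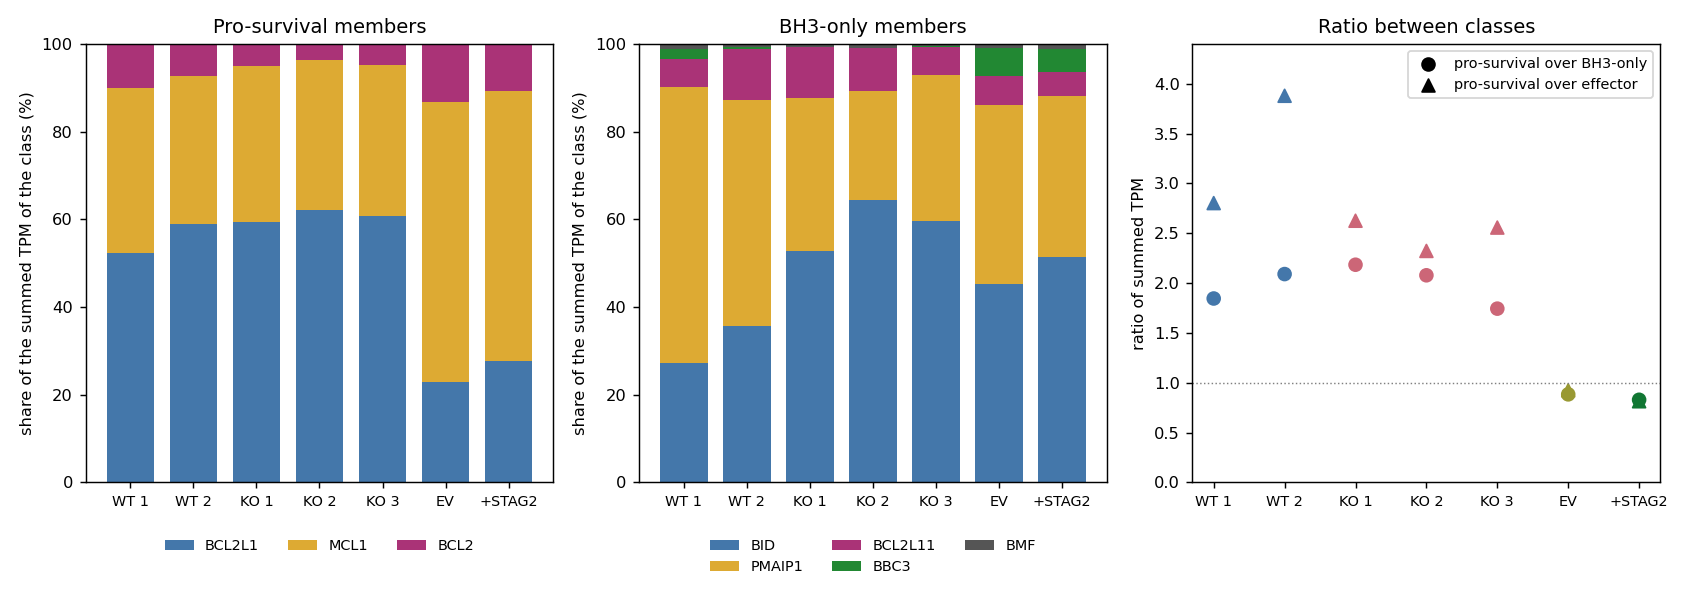
Share of each member in the summed TPM of the pro-survival class (left) and the BH3-only class (middle), and the ratio of summed pro-survival TPM to BH3-only TPM (circles) or effector TPM (triangles) per library (right), for PF-382 wild type (WT), knockout (KO) and MOLT-14 (EV, +STAG2). BID exceeds PMAIP1 in the 3 knockouts but not in the 2 wild-type libraries, and both ratios lie below 1 (dotted line) only in the 2 MOLT-14 libraries.

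The second comparison asked what STAG2 transduction did in MOLT-14, with 1 library on each side, so that there is no replicate check and no p-value. None of the 9 members above the 5 CPM minimum differed by 1.5-fold or more, against 7.44% of the 11442 genes above that minimum (4.18% higher and 3.26% lower with STAG2); BMF, the remaining member, was below it. Counts went from 1384 to 1853 for BAK1, from 921 to 703 for BCL2L11 and from 1780 to 2274 for BID. Scaled to CPM, the log2 ratio of STAG2 over empty vector was 0.40 for BAK1 (95% counting interval 0.30 to 0.50), the highest of the members, and -0.41 for BCL2L11 (-0.56 to -0.27), the lowest. BID was at 0.33 (0.24 to 0.42), BCL2L1 at 0.25 (0.15 to 0.34), and BCL2 at -0.27 (-0.34 to -0.19). PMAIP1 was at 0.10 (0.02 to 0.18), MCL1 at -0.09 (-0.14 to -0.04), BBC3 at -0.20 (-0.41 to 0.0013), BMF at 0.16 (-0.19 to 0.51) and BAX at -0.02 (-0.10 to 0.05). The intervals are exact binomial ones and cover counting error only.

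On the deposited TPM scale 5 members passed 1.5-fold, all lower with STAG2, beside 3497 of all 11442 genes, of which 3430 were lower (median log2 of all genes -0.46). On that scale BCL2L1, BID, PMAIP1, BMF and BAK1 had the opposite sign, BID at -0.28 in place of 0.33. The class ratio, taken within each library, was 0.884 with the empty vector and 0.829 with STAG2. BID made up 45.2% and 51.3% of BH3-only TPM and PMAIP1 41.0% and 36.9%. Both shares differed by less between these libraries than between the PF-382 groups, whose libraries did not overlap.

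Whether the change with low STAG2 differed between the lines was tested by the interaction of the 2 contrasts, with knockout over wild type in PF-382 set against empty vector over STAG2 in MOLT-14. The log2 change of STAG2 itself was -1.13 for knockout over wild type in PF-382. In MOLT-14 it was 6.87 for STAG2 over empty vector. Its transcript stood at 178 to 254 CPM in the knockouts but at 1.17 CPM with the empty vector, so the 2 contrasts are not of equal size in STAG2 transcript. These data hold no measure of STAG2 protein, so the transcript does not give the size of either contrast in protein. By edgeR, 0 members passed, at a background of 0.607% of 20100 genes, although BCL2, BID and BBC3 had an unadjusted p under 0.05. BID differed most clearly (difference in log2 change 1.38 ± 0.27 (SE)), without passing. Its CPM was higher with low STAG2 in PF-382 and lower in MOLT-14, whereas its TPM was higher with low STAG2 in both lines. On MOLT-14 TPM, though, BID was at -0.28 for STAG2 over empty vector and the median of all genes at -0.46. BID thus fell less with STAG2 there than the median gene. BCL2 differed by -1.12 (adjusted p = 0.175) and BBC3 by -3.90 (adjusted p = 0.172), and the other 7 members by -0.72 to 0.66 (adjusted p from 0.281 to 0.987). DESeq2 called 2 members, BID (adjusted p = 0.000741) and BBC3 (adjusted p = 0.0467), so the outcome depends on the tool. It also depends on the wild-type libraries: edgeR called 2 members without wild-type replicate 1 (BID and BAK1) and 2 without replicate 2 (BID and BBC3), and 0 without each knockout library in turn. Over all genes those fits called 2296 of 20153, 2125 of 20393 and, without any 1 knockout library, 0, so that the members' counts moved with those of all genes. The fit assumes that the single MOLT-14 libraries vary as the PF-382 libraries do.

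**Figure D3:**
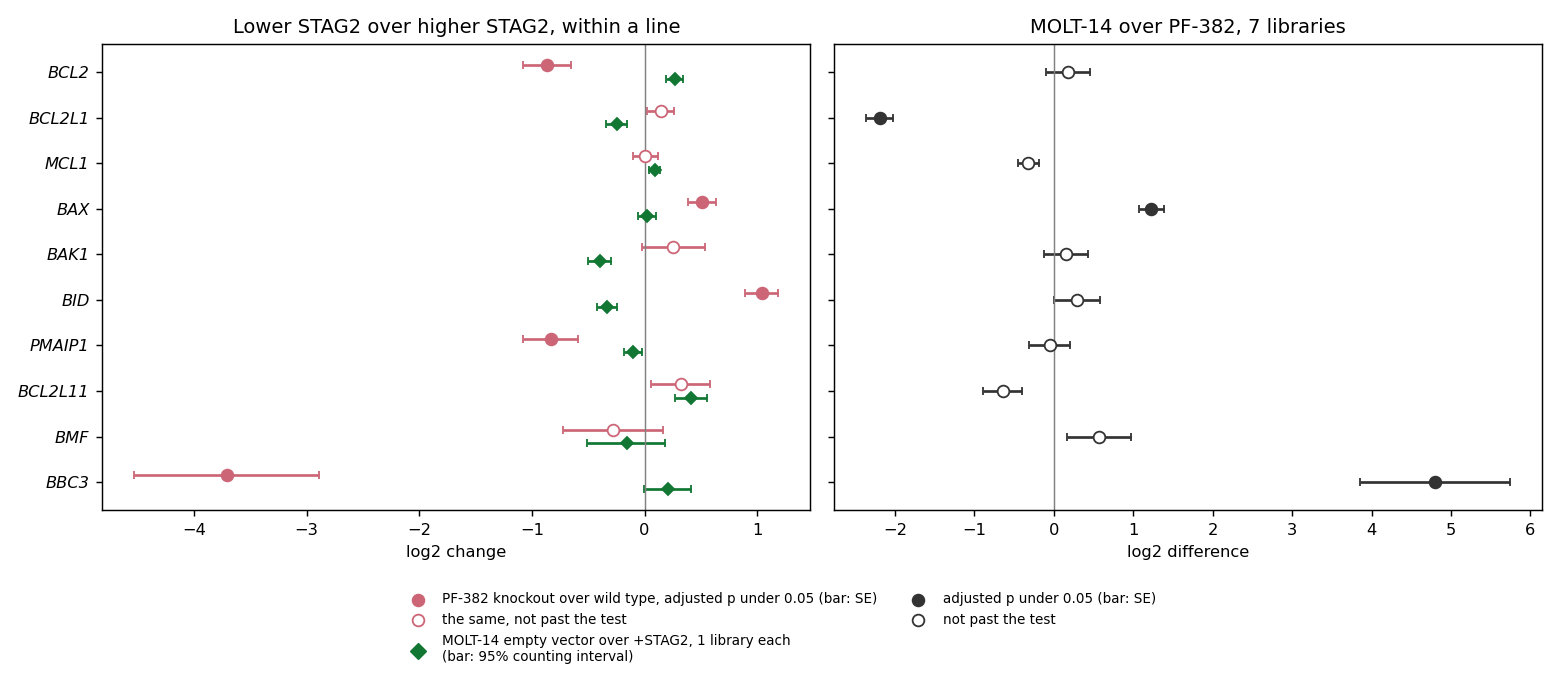
Left, log2 change (x axis) of each member with lower STAG2, as PF-382 knockout over wild type (circles with SE, filled where adjusted p is under 0.05) and MOLT-14 empty vector over STAG2 (diamonds with 95% counting interval); right, log2 difference of MOLT-14 over PF-382 from the 7 libraries. On this CPM scale BID is at 1.04 in PF-382 and on the other side of 0 in MOLT-14. On TPM it is on the same side, as is the MOLT-14 median of all genes. BCL2L1 and BBC3 mark the ends of the difference between lines, at -2.19 and 4.80. That fit gives both lines the same STAG2 effect, and BBC3 is at 2.44 against wild-type PF-382 alone.

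The third comparison set the lines against each other, with STAG2 state as a term. The 2 MOLT-14 libraries, different transductions of 1 line, served as its replicates. The p-values therefore measure only the spread between these libraries. MOLT-14 had less BCL2L1 and more BAX and BBC3 than PF-382, and the other 7 members did not pass the test. BCL2L1 was at 33.6 and 39.1 CPM in MOLT-14 against 145 to 179 CPM in the 5 PF-382 libraries, a 4.56-fold lower level (log2 -2.19 ± 0.17 (SE), edgeR adjusted p = 6.7e-05). BAX was at 54.0 and 52.2 CPM against 17.7 to 28.2 CPM (log2 1.23 ± 0.16 (SE), adjusted p = 0.00059). Both calls held under each of the 16 alternatives run. BBC3 was at 8.57 and 7.30 CPM in MOLT-14 against 0.0324 to 2.41 CPM, with a fitted log2 difference of 4.80 ± 0.95 (SE, edgeR adjusted p = 0.00421). That size rests partly on PF-382 knockouts near the floor, and the call was lost without the empty-vector library (log2 2.33). It also rests on the STAG2 term, which gives both lines the same effect. The log2 change of BBC3 was -3.71 with knockout in PF-382 but -0.20 for STAG2 over empty vector in MOLT-14. Its difference between lines was 3.69 without the STAG2 term and 2.44 against wild-type PF-382 alone.

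These 2 higher and 1 lower of 10 members stand beside 49.6% of all 18644 genes past the threshold (26.4% higher, 23.2% lower). Both MOLT-14 libraries lay outside the PF-382 range for 5 members, 2 above and 3 below, as they did for 57.9% of all genes (30.7% above and 27.3% below). The median log2 difference was 0.17 over the members and 0.07 over all genes. MCL1 (143 and 132 CPM in MOLT-14, log2 -0.32, adjusted p = 0.0800) and BCL2L11 (19.2 and 14.1 CPM, log2 -0.64, adjusted p = 0.0597) lay below every PF-382 library without passing edgeR's test, and DESeq2 called both (adjusted p = 0.0263 and 0.0415). BCL2, at 67.8 and 55.3 CPM, lay between the PF-382 wild-type and knockout levels. BID (37.0 and 45.7 CPM), PMAIP1 (48.9 and 51.5 CPM), BMF (2.77 and 3.04 CPM) and BAK1 (28.8 and 37.3 CPM) overlapped the PF-382 range in at least 1 library.

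Per length, the order of members differed between lines. In wild-type PF-382 the mean TPM ran from BCL2L1 (32.9) and MCL1 (20.7) through PMAIP1 (16.7) and BAX (12.3) to BAK1 (5.19) and BCL2 (4.92), then BCL2L11 (2.75), BBC3 (0.37) and BMF (0.255), with BID at 7.12 and 11.7 in its 2 libraries. BAK1 and BCL2 did not differ beyond their spread there. In the empty-vector MOLT-14 library the order was BAX (67.5), MCL1 (48.0), BID (38.5), PMAIP1 (34.9), BCL2L1 (17.2), BAK1 (13.9), BCL2 (9.99), BBC3 (5.57), BCL2L11 (5.44) and BMF (0.74). MCL1 made up 63.9% and 61.6% of pro-survival TPM in MOLT-14, the place that BCL2L1 held in PF-382, and BCL2L1 was at 0.358 and 0.450 of the TPM of MCL1 against 1.39 to 1.82 in PF-382. The ratio of pro-survival to BH3-only TPM was 1.21 lower on the log2 scale in MOLT-14 (difference -1.21), and that of pro-survival to effector TPM was 0.924 and 0.814. On the CPM scale, which ignores length, the first difference shrank to -0.73, and with the 5 further family genes added it was -0.66.

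TPM rests on the transcript mix that the counting assigned. The length implied by the deposited counts and FPKM was 3248 to 3385 bases for MCL1 in PF-382 and 2880 and 2757 bases in MOLT-14, and for PMAIP1 1667 to 1727 bases against 1355 and 1493. BCL2L11 ranged from 3075 to 4782 bases within PF-382. Shorter assigned transcripts give a higher TPM for the same count; the part of these lengths in the difference between lines was not tested.

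Other genes of the pathway are read against the same background in PF-382, in which 15.8% of all genes tested rose and 14.6% fell, with a median log2 change of -0.02; no list was tested against it. Of 14 genes of mitochondrial release and the apoptosome, all tested, 7 rose, 0 fell and 7 did not pass (median log2 0.34). CYCS, which encodes the cytochrome c released through BAX and BAK1 pores, stood at 168 ± 21.8 CPM (SD, n = 2) in wild type and at 317 ± 14.6 CPM (SD, n = 3) in the knockouts (log2 0.91, edgeR adjusted p = 0.00654). The outer-membrane channels VDAC1 (log2 0.82, adjusted p = 0.00551) and VDAC3 (0.92, adjusted p = 0.00416), the latter a close relative of the BAK1 partner VDAC2, also rose, as did the initiator caspase gene CASP2 (0.93, adjusted p = 0.0120). VDAC2 itself was at 0.10 (adjusted p = 0.610).

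The death receptor genes, which act upstream of BID, numbered 12, of which 11 were tested, 1 rose, 1 fell and 9 did not pass (median log2 -0.06). CFLAR, the decoy that blocks caspase-8, fell to 26.6 ± 1.08 CPM (SD, n = 3), the wild-type mean being 42.2 ± 6.49 CPM (SD, n = 2; log2 -0.67, edgeR adjusted p = 0.0144). RIPK1, the adaptor kinase of these complexes, rose from 16.7 to 27.0 CPM (log2 0.69, adjusted p = 0.0216). CASP8, which cuts BID, was at 0.28 (adjusted p = 0.120) and TRADD at 0.63 (adjusted p = 0.138).

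Of 15 regulators of the members, 13 were tested, 2 rose, 4 fell and 7 did not pass (median log2 -0.08). DDIT3, the stress factor CHOP, fell, its mean being 34.3 ± 7.09 CPM (SD, n = 2) before and 5.66 ± 0.42 CPM (SD, n = 3) after knockout (log2 -2.61, edgeR adjusted p = 0.00218). STAT5B (log2 -1.38, adjusted p = 0.00262) and STAT5A (-1.45, adjusted p = 0.00416), which transmit cytokine signals and can induce BCL2 family genes, fell as well, and so did FOXO1 (-1.55, adjusted p = 0.0104). The 2 that rose were E2F1, a cell cycle factor (0.50, adjusted p = 0.0221), and BTRC, a ubiquitin ligase subunit (0.44, adjusted p = 0.0412), named after their values were seen.

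Of 12 further family members 7 were tested in PF-382, and BAD alone rose (log2 0.66, edgeR adjusted p = 0.0410; it overlaps GPR137 on the opposite strand), with 0 lower and a median log2 of 0.27; BCL2L13 was at 0.31, MOAP1 at -0.43 and BCL2L15 at 0.91, none past the test. Of 7 inhibitor of apoptosis genes 6 were tested and 0 passed (median log2 0.05), beside the 30.4% of all genes that passed. BIRC3 was at -0.44 (adjusted p = 0.0894), NAIP at -0.24, XIAP at 0.14 and BIRC5 at 0.09.

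**Figure D4:**
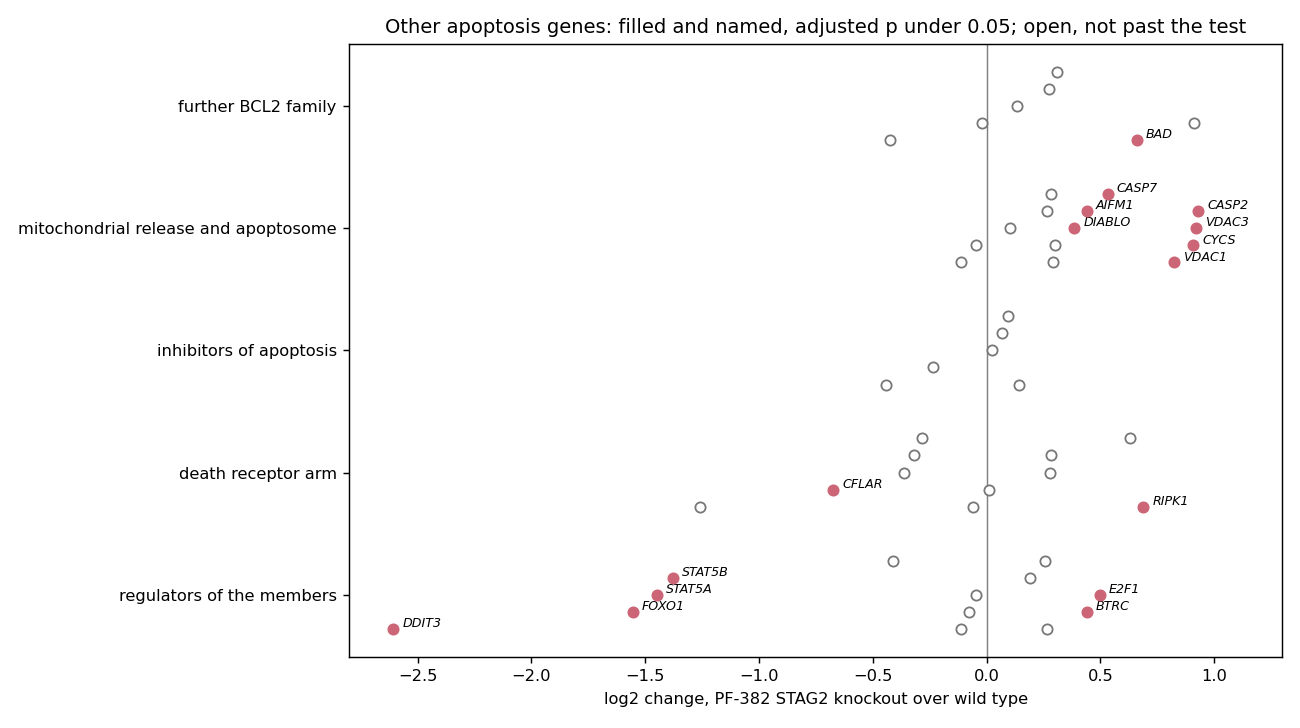
Log2 change of PF-382 knockout over wild type (x axis) for every tested gene of the 5 lists of other apoptosis genes (y axis); each point is a gene, filled and named where the adjusted p is under 0.05. All 7 named mitochondrial genes lie to the right of 0, and the regulators spread from DDIT3 at -2.61 to E2F1 at 0.50.

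Between the lines the same lists are read against 26.4% of all genes higher and 23.2% lower in MOLT-14. In MOLT-14, 3 of 8 tested further family members were higher and 2 lower: BCL2L2, the pro-survival gene for BCL-W, was at 18.6 and 18.8 CPM against 0.282 to 0.423 CPM in PF-382 (log2 5.73, edgeR adjusted p = 5.53e-06), and the BH3-only gene HRK at 5.203 and 4.06 CPM against 0.0649 to 0.878 CPM (log2 4.90, adjusted p = 0.00156). HRK did not pass the low-count filter within PF-382, and in the knockouts it stood at 0.0649 to 0.0686 CPM, near the 3-count floor. The size of its log2 difference depends on these values. MOAP1 was higher and BAD and BIK lower. BCL2L2 shares exons with the readthrough transcript BCL2L2-PABPN1 and overlaps PPP1R3E on the opposite strand, so its counts are uncertain. Inhibitors of apoptosis included 1 higher (NAIP) and 4 lower (XIAP, BIRC2, BIRC3 and BIRC5) of 6 tested, and mitochondrial genes 1 higher (HTRA2) and 7 lower of 14. Among 11 death receptor genes, 2 were higher and 0 lower; CFLAR was at 141 and 121 CPM in MOLT-14 against 25.4 to 46.8 CPM in PF-382 (log2 2.02, adjusted p = 0.000177). Regulators included 6 higher and 1 lower of 14, the lower being MARCHF5, the mitochondrial ubiquitin ligase that acts on MCL1 and NOXA (log2 -1.32, adjusted p = 0.000268).

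For each member called in PF-382, the protein-coding gene most like it over the 7 libraries was found by Pearson's r of log2 CPM among 10146 or 10147 genes. For BID this was POLA2, a DNA polymerase alpha subunit (r = 0.990), with GPS1 (0.983) also among the closest. For BAX it was NBEAL2 (0.996), ZNF70 (0.995) and GTPBP3 (0.994), and for BBC3 it was NBPF1 (0.996), SLC16A3 (0.992) and NFE2 (0.991). BCL2 was most like ZKSCAN3 (0.957), ITPR1 (0.943) and KANTR (0.941), and PMAIP1 most like AJUBA (0.978), CD1C (0.964) and ZKSCAN3 (0.949). ZKSCAN3 was the gene that appeared for both BCL2 and PMAIP1. The 7 points share line and depth, the best of so many genes will be high, and no p is given.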

How the data were processed

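Total RNA from 7 libraries of the T-ALL lines PF-382 (2 wild type, 3 STAG2 knockout) and MOLT-14 (1 empty vector, 1 STAG2) was sequenced by the authors. The deposited tables give expected counts, TPM and FPKM per gene, per the file headers. The submitters' processing notes name STAR, RSEM and GRCh38 (hg38); versions, strand setting and annotation release are not given in the sources used here. RSEM shares reads that fit several genes or transcripts, so expected counts need not be whole.

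Expected counts were rounded, and 92 ERCC spike-in features were left out of library sizes and tests. PF-382 knockout and wild type were compared with edgeR 4.0.16 (R 4.3.3; filterByExpr, TMM scaling, quasi-likelihood test, two-sided, Benjamini-Hochberg over all genes tested, threshold 0.05). The standard error is the absolute log2 change divided by the square root of F. The lines were compared over all 7 libraries with STAG2 state as a term, and the interaction in a fit of the 4 groups. MOLT-14, with 1 library a group, was described by the log2 ratio of CPM (prior count 2) for genes that reached 5 CPM in either library. Class sums used the deposited TPM; the deposited FPKM served only to derive implied lengths. The precision of each value follows from 32609485 to 93970572 counts a library. Scripts were tested on simulated data.

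The members and gene lists were chosen with earlier results of these data known. All 10 members are named, from each list up to 4 tested genes with the smallest adjusted p in PF-382, and 3 genes most like each called member among protein-coding genes at a mean of 5 CPM or more. A gene of the regulator list and a gene most like BID are not reported here. Gene positions come from GENCODE 29, in which 58587 of the 60662 gene IDs were found without their version, and promoters from RefSeq (GRCh38.p14), whose tables matched 9 of the 10 members. DIABLO is listed under several IDs, of which the first was used, and MARCHF5 under its older symbol. Alternatives included DESeq2 1.42.0, other scalings and filters, limma 3.58.1 on log2(TPM + 1) and leaving out each library. Pairs of libraries of a group correlated at 0.980 to 0.996 (Pearson's r of log2 CPM), and none was a copy of another.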

Additional observations from a re-analysis of the deposited data

How the results depend on the processing

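In PF-382 the knockout call count of 5311 genes became 3093 with limma on log2(TPM + 1), 306 within the SA-labelled libraries and 2271 to 6304 when 1 library was left out (2649, 2344 and 2271 without knockout replicates 1, 2 and 3). The 5 members called became 1 on TPM, 0 within SA and 2 to 5 with a library left out. BID kept its call in 13 of 14 alternatives, and BCL2, BID, BBC3, PMAIP1 and BAX kept their direction in each that fitted them (13 for BBC3, which the filter of 1 CPM in 2 libraries removed). MCL1, at 0.01, changed sign with DESeq2 (-0.0030), DESeq2 size factors in edgeR (-0.0030), upper-quartile scaling (-0.16), a filter of 1 CPM in 2 libraries (-0.0778), protein-coding genes only (-0.0866) and with a library left out (-0.0369 to 0.0354). BCL2L1 turned to -0.0192 under upper-quartile scaling. With a library left out BMF ranged from -0.82 to 0.69 and BAK1 from -0.13 to 0.84.

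Between the lines the 3 members called became 5 with DESeq2, 9 on TPM and 3 to 4 with a library left out; over all 18644 genes DESeq2 called 9738, and TPM 11779, of which 10765 were higher (median log2 0.52). PMAIP1, at -0.05, turned to 0.0895 under upper-quartile scaling, 0.0312 with the 1 CPM filter, 0.0341 with protein-coding genes and 1.08 on TPM. On TPM MCL1 turned to 0.82 and BCL2L11 to 0.48, and against wild-type PF-382 alone BCL2 turned to -0.34. Leaving out 1 library gave -0.47 to 0.25 for PMAIP1, -0.47 to 0.64 for BCL2, -0.44 to 0.95 for BID and -0.19 to 0.48 for BAK1.

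The interaction count of 122 genes became 28 with upper-quartile scaling, 648 without a filter, 2203 with DESeq2 and 0 to 2296 with a library left out; its 0 members became 1 (BID) without a filter, 2 with DESeq2 and 0 to 2 with a library left out. There BMF ranged from -0.70 to 0.82 and BCL2L11 from -0.35 to 0.0856. In MOLT-14 the 851 genes past 1.5-fold became 3497 on TPM, 1857 at 1 CPM or more and 222 at 2-fold, and the 0 members became 5 on TPM, where 3430 of those genes were lower.

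The PF-382 difference of 0.02 in log2 class ratio became 0.77 without BID and -0.30 with 5 further family genes, and -0.07 to 0.12 with a library left out. That of MOLT-14 STAG2 over empty vector, -0.09, became 0.0798 without BID. The difference of -1.21 between lines became -2.01 without MCL1, -0.73 on CPM, -0.66 with the 5 genes, -0.93 as a mean of log2(TPM + 1) and -1.26 to -1.18 with a library left out. The cause of these shifts was not tested. No paired analysis was possible because the library titles carry no replicate number shared between groups. Depth limits BBC3 and BMF most, at 2 to 412 and 34 to 154 counts a library.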
